A study of Glycine max with 30 samples.

Results

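The raffinose family oligosaccharide (RFO) genes of the developing soybean seed are described here as 8 genes of the 54175 genes in the count tables. They were chosen by their annotation, with earlier results of these data known. Of the 8 genes, 6 encode galactinol synthase (GS), 1 encodes raffinose synthase (RS2) and 1 encodes stachyose synthase (StaSyn1). The mutant line, 3mlpa (mips1/mrp-l/mrp-n), is homozygous for mutations in MIPS1 and in the transporter genes MRP-L and MRP-N, and its seeds are low in phytic acid. The line it was set against, 3MWT (MIPS1/MRP-L/MRP-N), carries the non-mutant allele of all these genes. Both are recombinant inbred lines of the same cross, their backgrounds are not isogenic, and each genotype was represented by a single line, so that the mutations cannot be told apart from other differences between the lines. Whole seeds were taken at 5 stages of seed length, which were 2 to 4 mm (stage 1), 4 to 6 mm (stage 2), 6 to 8 mm (stage 3), 8 to 10 mm (stage 4) and 10 to 12 mm (stage 5). Each line and stage had 3 libraries, 30 in all, and each library came from seeds pooled over different pods and plants grown in the same chamber.

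RFOs are galactose-bearing derivatives of sucrose that legume seeds store late in development. GS joins galactose from UDP-galactose to myo-inositol and so makes galactinol, the galactose donor of the pathway. Raffinose synthase moves galactose from galactinol to sucrose, stachyose synthase moves it from galactinol to raffinose, and both steps release myo-inositol. MIPS catalyzes the entry step of myo-inositol synthesis, and MRP-L and MRP-N are membrane transporters of the ABC class whose loss lowers seed phytic acid. Which RFO genes the seed uses, when, and whether the lines differ in them was the question the counts could address.

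The counts on genes ran between 14150244 and 29476755 per library, with a median of 20987978. The correlation of a library with the others of its group averaged between 0.949 and 0.991 over genes with a mean of at least 1 CPM, and none was left out. The 10 genes with the most counts took 2.16 % of the counts in the library where they took least and 27.9 % in the library where they took most, so values are given as CPM, read counts per 1000000 reads of the TMM effective library size (TMM scaling evens out such composition differences). The mutations in MRP-L and MRP-N are point mutations, so their read counts do not check the line labels, and MIPS1 is not analysed here. Names of seed marker genes are not paired with identifiers in the sources used here, and the tissue label was therefore not checked against markers.

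The primers that the study used for quantitative PCR of 3 members are shown, because they fix which transcripts were measured that way. All are written 5′ to 3′, in lower case throughout.
GalS1-F: ttcacatcggcactattgga
GalS1-R: aagcatattaggcagcagaagg
RS2-F: ctagggccatctctggtgga
RS2-R: cgtgtggggagtgcatagtg
StaSyn1-F: gctccctgatggaaaactc
StaSyn1-R: cggtagaaccacaggacaaaa
These belong to Glyma19g41550 (GalS1), Glyma06g18890 (RS2) and Glyma19g40550 (StaSyn1). The RS2 pair had a GC content of 60.0 % in each primer, against 45.0 % and 45.5 % in the GalS1 pair and 52.6 % and 47.6 % in the StaSyn1 pair. The other 5 GS genes had no primers in the list. The study states that it took Glyma19g41550 because this GS gene had the highest fold change in its RNA-Seq data. It names Glyma19g40550 as the only stachyose synthase gene of that assembly.

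RS2 was the member with the clearest change over seed growth, and it rose in both lines. In 3mlpa it had 4.77, 3.78 and 6.80 CPM at stage 1, 12.7, 9.19 and 13.2 CPM at stage 2, 12.95, 33.8 and 31.7 CPM at stage 3, 19.6, 21.7 and 30.8 CPM at stage 4, and 32.8, 31.4 and 32.5 CPM at stage 5. In 3MWT it had 1.56, 4.99 and 1.32 CPM at stage 1, 10.6, 7.72 and 9.22 CPM at stage 2, 15.005, 14.1 and 10.7 CPM at stage 3, 11.8, 10.8 and 9.88 CPM at stage 4, and 12.3, 13.6 and 15.1 CPM at stage 5. Every stage 5 library lay above every stage 1 library of its line, and the 3mlpa libraries of stage 5 lay closer together than those of any earlier stage of that line. Stage 5 over stage 1, the log2 fold change of RS2 was 2.63 ± 0.33 (SE) in 3mlpa, a 6.18-fold change with an edgeR adjusted p of 1.39e-05. In 3MWT it was 2.42 ± 0.33, a 5.34-fold change with an edgeR adjusted p of 1.32e-05. All 6 libraries of a stage shared a sequencing lane, so stage and lane cannot be told apart. In whole seeds, more cells of a type and more RNA per cell cannot be told apart either.

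Between neighbouring stages, RS2 passed 1 % FDR only at the first step of 3MWT, where it rose by 1.83 ± 0.33 on the log2 scale (stage 2 over stage 1, edgeR adjusted p = 0.000793). In 3mlpa the same step was 1.20 ± 0.32 with an edgeR adjusted p of 0.0262, and stage 3 over stage 2 was 1.13 ± 0.31 with an edgeR adjusted p of 0.0330, both short of the threshold. DESeq2 called both of these 3mlpa steps, with adjusted p of 0.00297 and 0.00482. The order of the 10 group means of RS2 ran 3mlpa stage 5 (32.2 ± 0.77 CPM, SD, n = 3 for this and each following group), 3mlpa stage 3 (26.1 ± 11.5), 3mlpa stage 4 (24.0 ± 5.96), 3MWT stage 5 (13.7 ± 1.38), 3MWT stage 3 (13.2 ± 2.27), 3mlpa stage 2 (11.7 ± 2.17), 3MWT stage 4 (10.8 ± 0.97), 3MWT stage 2 (9.17 ± 1.42), 3mlpa stage 1 (5.12 ± 1.54) and 3MWT stage 1 (2.62 ± 2.05). Neighbours in this order overlapped except at 2 places, where all 3 libraries of 3mlpa stage 4 lay above those of 3MWT stage 5 and all 3 of 3MWT stage 2 lay above those of 3mlpa stage 1.

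**Figure D1:**
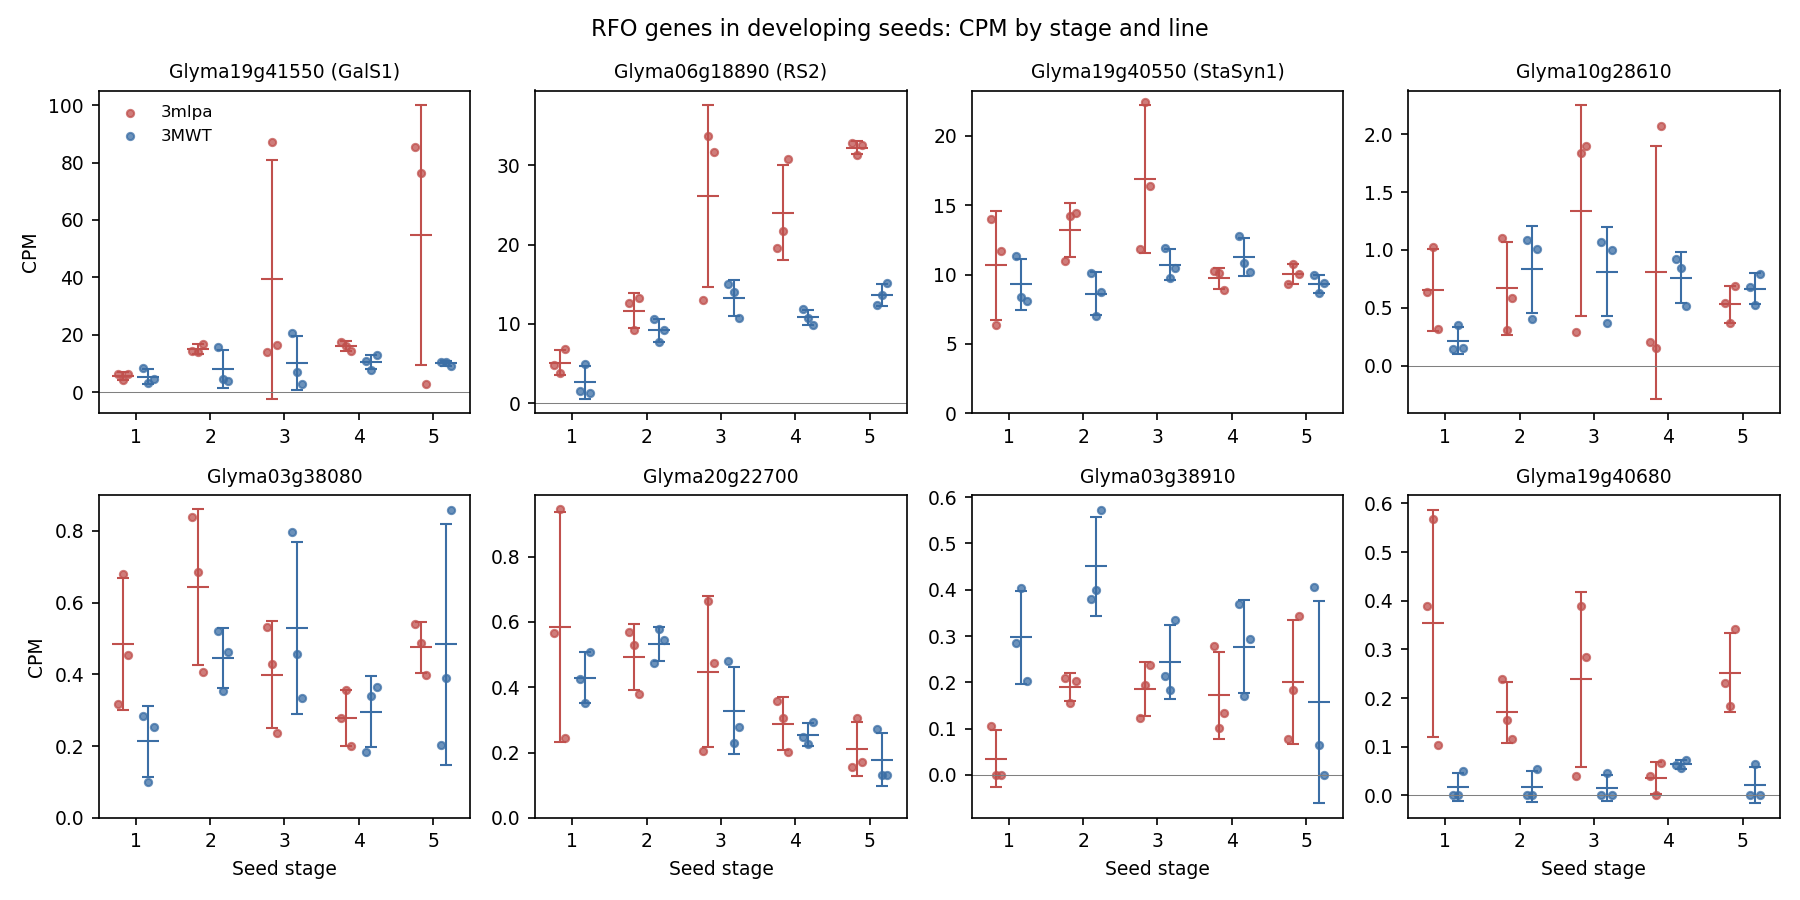
CPM of the 8 RFO genes (y axis, 1 panel per gene, scales differ) by seed stage (x axis), with 3mlpa left of 3MWT; points are libraries, and bars are the mean and SD of 3 libraries. RS2 of 3mlpa reached 32.2 ± 0.77 CPM at stage 5, against 13.7 ± 1.38 CPM in 3MWT, while GalS1 of 3mlpa spread between 2.85 and 85.3 CPM at that stage.

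GalS1, the GS gene that took most of the GS counts, was higher late than early in 3mlpa, but its libraries were far apart. Its 3mlpa values were 6.36, 4.12 and 6.38 CPM at stage 1, 14.3, 13.9 and 16.9 CPM at stage 2, 14.1, 87.3 and 16.6 CPM at stage 3, 17.6, 16.1 and 14.3 CPM at stage 4, and 85.3, 76.2 and 2.85 CPM at stage 5. In 3MWT they were 8.28, 3.17 and 4.52 CPM at stage 1, 15.9, 4.57 and 3.87 CPM at stage 2, 20.6, 7.09 and 2.84 CPM at stage 3, 10.7, 7.85 and 12.8 CPM at stage 4, and 10.6, 10.6 and 9.10 CPM at stage 5. The high 3mlpa values came from replicate 2 of stage 3 and replicates 1 and 2 of stage 5, whereas replicate 3 of stage 5 was below every stage 1 library of that line. That library had 32.5 CPM of RS2 and 10.0 CPM of StaSyn1, within the range of its group for both, but it stood apart for other genes: it was the lowest of its group for SugT1, a sugar transporter gene (17.3 CPM, against 65.5 and 81.3 CPM), and the highest for MRP-N (177 CPM, against 96.9 and 89.2 CPM). Its mean correlation with the other libraries of its group was 0.960, against 0.976 for each of the others. It was not the lowest of the series in this measure. Replicate 2 of 3MWT stage 1 (0.949), replicate 1 of 3mlpa stage 3 (0.953) and replicate 3 of 3mlpa stage 4 (0.955) were lower.

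Stage 5 over stage 1, GalS1 rose in 3mlpa by 3.26 ± 0.89 on the log2 scale (edgeR adjusted p = 0.00668) and the change in 3MWT was 0.90 ± 0.60 (edgeR adjusted p = 0.213). The 3mlpa call was kept without replicate 3 of stage 5 (3.82, adjusted p = 0.000154) and lost without any 1 of the other 5 libraries of stages 1 and 5, where the log2 fold changes were 2.78 to 3.37 and the adjusted p between 0.0210 and 0.0303. It was also lost with only stages 1 and 5 in the fit (3.26, adjusted p = 0.0220), and over all 5 stages together GalS1 was not called (adjusted p = 0.0325). The difference of the stage change between the lines was 2.38 ± 1.118 on the log2 scale and did not pass (edgeR adjusted p = 0.235).

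The order of the GalS1 group means was 3mlpa stage 5 (54.8 ± 45.2 CPM), 3mlpa stage 3 (39.3 ± 41.6), 3mlpa stage 4 (16.0 ± 1.69), 3mlpa stage 2 (15.02 ± 1.63), 3MWT stage 4 (10.5 ± 2.49), 3MWT stage 3 (10.2 ± 9.27), 3MWT stage 5 (10.1 ± 0.87), 3MWT stage 2 (8.10 ± 6.73), 3mlpa stage 1 (5.62 ± 1.30) and 3MWT stage 1 (5.32 ± 2.65). Only 3mlpa stage 2 lay wholly above its next lower neighbour. The pooled within-group SD of GalS1 was 1.08 on the log2(CPM + 1) scale, larger than that of 99.8 % of the 32401 genes with a mean of at least 1 CPM. RS2 stood at 0.39 (larger than 92.8 % of these genes) and StaSyn1 at 0.27 (larger than 78.0 %). The cause of the spread of GalS1 between seed pools was not tested.

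StaSyn1 differed little between early and late seeds of either line. In 3mlpa it had 13.99, 6.36 and 11.7 CPM at stage 1, 11.01, 14.2 and 14.5 CPM at stage 2, 11.8, 22.5 and 16.4 CPM at stage 3, 10.3, 10.1 and 8.87 CPM at stage 4, and 9.34, 10.7 and 10.0 CPM at stage 5. In 3MWT it had 11.4, 8.42 and 8.07 CPM at stage 1, 10.1, 7.01 and 8.75 CPM at stage 2, 11.9, 9.75 and 10.5 CPM at stage 3, 12.8, 10.8 and 10.2 CPM at stage 4, and 9.96, 8.67 and 9.36 CPM at stage 5. Stages 1 and 5 overlapped in both lines, and the highest library, replicate 2 of 3mlpa stage 3, was also the highest of the 30 for GalS1 and RS2. The log2 fold change of stage 5 over stage 1 was -0.12 ± 0.26 in 3mlpa (edgeR adjusted p = 0.731) and 0.01 ± 0.16 in 3MWT (edgeR adjusted p = 0.983), and no step between stages was called. The group means of StaSyn1 lay between 16.9 ± 5.33 CPM (3mlpa stage 3) and 8.62 ± 1.54 CPM (3MWT stage 2), and all neighbours in the order overlapped.

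The other 5 GS genes were counted at low levels, and edgeR called none of them for stage 5 over stage 1, for all stages together or for a step between stages in either line. Nearest among the steps was Glyma10g28610 at stage 2 over stage 1 of 3MWT, with 1.97 ± 0.52 on the log2 scale (edgeR adjusted p = 0.0120), which DESeq2 called (adjusted p = 0.00754). Glyma10g28610 had a median of 12 counts per library in 3mlpa and 10 counts in 3MWT, Glyma03g38080 9 and 6 counts, Glyma20g22700 9 and 5 counts, and Glyma03g38910 3 and 6 counts. Glyma19g40680 had a median of 4 counts in 3mlpa and of 0 counts in 3MWT, where 8 of 15 libraries held none. Of these, Glyma20g22700 had stage 5 over stage 1 log2 fold changes of -1.45 ± 0.57 in 3mlpa (edgeR adjusted p = 0.0445) and -1.24 ± 0.46 in 3MWT (edgeR adjusted p = 0.0343), with its 3MWT libraries of stage 5 all below those of stage 1. Glyma10g28610 differed in 3MWT by 1.64 ± 0.56 (edgeR adjusted p = 0.0220), with all 3 stage 5 libraries above stage 1, and by -0.32 ± 0.93 in 3mlpa (edgeR adjusted p = 0.790). Its 3mlpa values were scattered, with 0.20, 0.15 and 2.07 CPM at stage 4. Glyma03g38080 had log2 fold changes of -0.05 ± 0.41 in 3mlpa and 1.13 ± 0.56 in 3MWT, and Glyma03g38910 2.36 ± 0.89 and -0.90 ± 0.72, all short of the threshold. The Glyma03g38910 value in 3mlpa rests on 3 counts at stage 1, all in replicate 1, without which it was called (5.34, adjusted p = 0.00280). Replicates 2 and 3 of that stage held 0 counts of this gene, so the 5.34 is a fold against no reads.

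The number of members that changed can be read against all genes. Stage 5 over stage 1, 2 of 8 members tested were called in 3mlpa, where 42.3 % of all genes tested were called, and 1 of 7 in 3MWT, where 41.8 % were; Glyma19g40680 had too few counts to be tested in 3MWT. Over all 5 stages together, RS2 was the single member called in each line, beside 40.3 % of all genes in 3mlpa and 44.5 % in 3MWT. For the steps between stages of 3mlpa, no member was called where 5.17 % (stage 2 over 1), 3.34 % (3 over 2), 0.027 % (4 over 3) and 0.259 % (5 over 4) of all genes were. In 3MWT the 1 member called was RS2 at stage 2 over 1, where 13.3 % of all genes were called, and no member was called at the later steps, where 6.06 %, 1.27 % and 0.491 % were. At an unadjusted p under 0.05, 2, 1, 2 and 1 members passed edgeR at the 4 steps of 3mlpa, and in 3MWT 2 did at the first step (RS2 and Glyma10g28610) and 0 at each later step. Of all 44448 genes tested in 3mlpa, 11745, 11163, 7951 and 9231 passed in the same way at these steps. Of the 43381 tested in 3MWT, 14756, 13004, 8904 and 4608 did. DESeq2 called 1 member, RS2, at each of the first 2 steps of 3mlpa, 2 (RS2 and Glyma10g28610) at the first step of 3MWT, and 0 at the last 2 steps of 3mlpa and the last 3 of 3MWT. The share of all genes that DESeq2 called was not recorded, so its counts cannot be set against it. The median log2 fold change of stage 5 over stage 1 was -0.08 over the members tested in 3mlpa and 0.90 in 3MWT, against -0.09 and -0.08 over all genes tested.

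**Figure D2:**
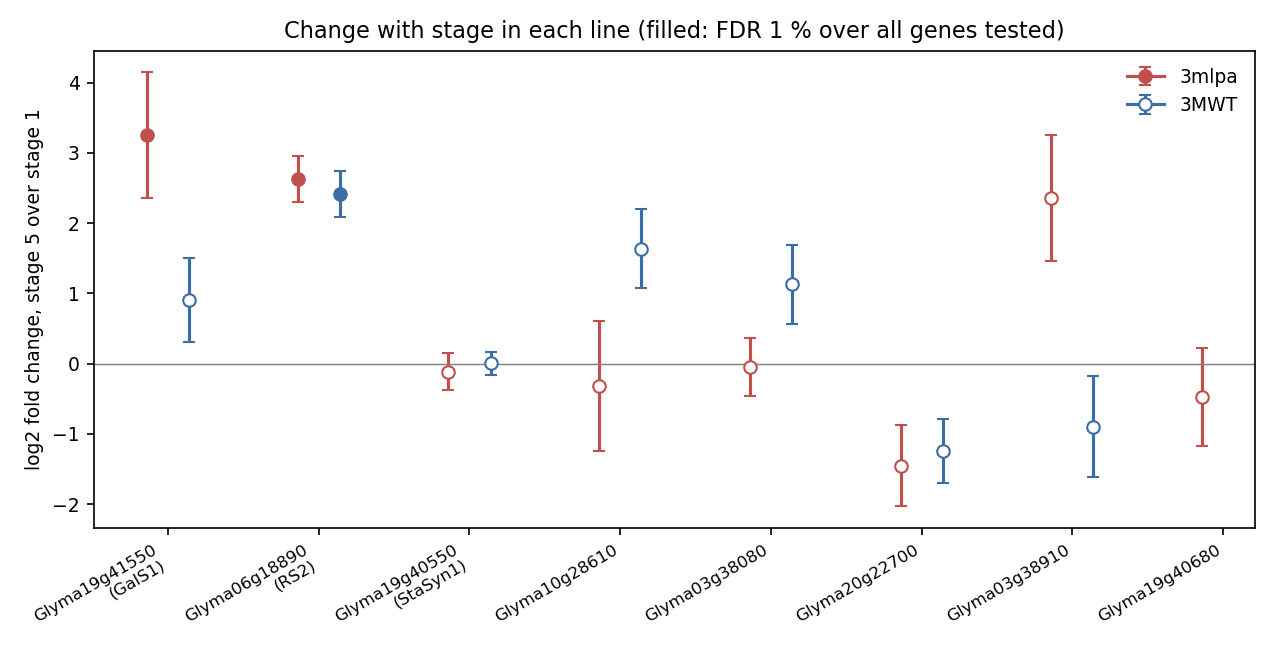
The log2 fold change of stage 5 over stage 1 (y axis) for each RFO gene (x axis), with 3mlpa left of 3MWT; bars are the SE and filled points passed 1 % FDR. RS2 stood at 2.63 in 3mlpa and 2.42 in 3MWT, and StaSyn1 at -0.12 and 0.01; Glyma19g40680 was not tested in 3MWT.

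These stage changes are relative to the scaling. With library totals in place of TMM, a setting chosen after seeing the data, the median of all genes moved by -0.91 on the log2 scale in 3mlpa and by -0.88 in 3MWT. In 3mlpa 28198 of all 44448 genes tested were then called, against 18805 with TMM. In 3MWT 28168 of 43381 were, against 18153 with TMM. The share of calls that were upward was then 9.77 % in 3mlpa, against 48.8 % with TMM, and 10.8 % in 3MWT, against 49.5 % with TMM. RS2 still rose (1.71 in 3mlpa and 1.501 in 3MWT, adjusted p = 8.34e-05 and 0.00155). GalS1 was no longer called in 3mlpa (2.34, adjusted p = 0.0211), whereas StaSyn1 was lower at stage 5 than at stage 1 in both lines (-1.03 in 3mlpa, adjusted p = 0.00257, and -0.88 in 3MWT, adjusted p = 0.000305), and so was Glyma20g22700 (-2.35, adjusted p = 0.00188, and -2.09, adjusted p = 0.000716).

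Among the 6 GS genes, GalS1 ranked first in counts in all 15 libraries of 3mlpa and all 15 of 3MWT. Its share of the GS counts had a median of 88.3 % in 3mlpa (56.2 to 98.2 %) and of 84.7 % in 3MWT (59.3 to 90.1 %). These are shares of counts and not of transcripts, since the files give no gene lengths, and reads that mapped to more than 1 place were not counted, so that a near-identical paralog can lose reads. Alignments that were not unique numbered between 4298110 and 8643432 per library in 3mlpa and between 9060479 and 50575458 in 3MWT. Every 3MWT library exceeded every 3mlpa library in this number, so that it cannot be told apart from the line, and its part in the shares and in line differences of paralogs such as Glyma19g40680 was not tested.

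By stage, GalS1 took 72.4 ± 14.8, 87.4 ± 4.12, 90.8 ± 6.12, 90.9 ± 5.77 and 85.3 ± 22.3 % of the GS counts in 3mlpa at stages 1 to 5 (SD, n = 3 each). In 3MWT it took 79.9 ± 7.77, 72.8 ± 13.6, 77.7 ± 16.0, 85.9 ± 3.28 and 86.9 ± 3.21 % at stages 1 to 5. The lines overlapped at every stage. The spread was narrowest in 3MWT at stages 4 and 5 and widest in 3mlpa at stage 5, where replicate 3 had 59.5 % and the highest library had 98.2 %. With the counts of each group summed, the stage 5 share was 96.8 % in 3mlpa and 87.0 % in 3MWT.

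The rest of the GS counts were shared by genes whose order differed between libraries. With the counts of a group summed, Glyma10g28610 came next after GalS1 in all 5 stages of 3mlpa, with 8.36, 3.90, 3.01, 3.68 and 1.007 % of the GS counts at stages 1 to 5. Single libraries did not all follow this order: at stage 4, 31 of its 39 counts came from replicate 3, and in replicates 1 and 2 it had 5 and 3 counts, fewer than Glyma20g22700 (9 and 6) and Glyma03g38080 (7 and 7). The mean of its share over the 3mlpa libraries was 8.57 ± 4.94, 3.84 ± 2.30, 4.50 ± 4.43, 4.72 ± 6.48 and 5.13 ± 7.93 % at stages 1 to 5 (SD, n = 3 each). In 3MWT, the summed counts gave Glyma10g28610 3.02, 8.98, 6.53, 6.53 and 5.71 % at stages 1 to 5, and at stage 1 it was behind Glyma20g22700 (6.25 %), Glyma03g38910 (4.31 %) and Glyma03g38080 (3.23 %). The summed level of the 5 genes other than GalS1 was low, between 1.58 ± 0.95 CPM (stage 4) and 2.61 ± 1.25 CPM (stage 3) in 3mlpa and between 1.17 ± 0.04 CPM (stage 1) and 2.28 ± 0.48 CPM (stage 2) in 3MWT, where all stage 1 libraries (1.14 to 1.21 CPM) lay below all stage 2 libraries (1.73 to 2.65 CPM). The summed level of all 6 followed GalS1, at 56.5 ± 45.0 CPM in 3mlpa and 11.6 ± 0.65 CPM in 3MWT at stage 5.

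**Figure D3:**
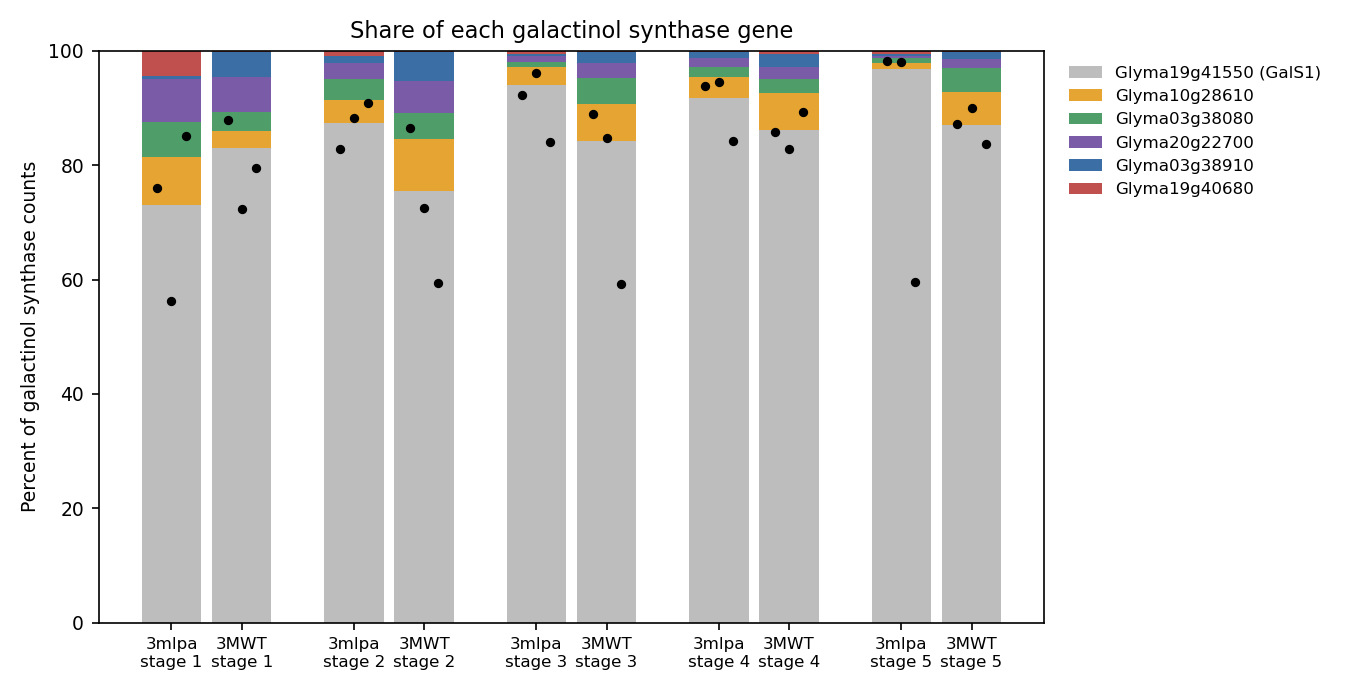
Percent of the GS counts (y axis) taken by each of the 6 GS genes in the summed counts of 3 libraries, by stage with 3mlpa left of 3MWT (x axis); black points are the GalS1 share in single libraries. GalS1 took 56.2 to 98.2 % of the GS counts per library in 3mlpa and 59.3 to 90.1 % in 3MWT.

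Of the genes after GS in the pathway, RS2 had more counts relative to StaSyn1 at stage 5 than at stage 1 in both lines. Whether this rise differed between the lines was not tested on the ratio. In 3mlpa, RS2 had 0.51 ± 0.14, 0.90 ± 0.25, 1.51 ± 0.42, 2.51 ± 0.84 and 3.22 ± 0.30 counts per StaSyn1 count at stages 1 to 5 (SD, n = 3 each). In 3MWT it had 0.30 ± 0.26, 1.07 ± 0.03, 1.24 ± 0.21, 0.96 ± 0.04 and 1.47 ± 0.21 counts per StaSyn1 count at stages 1 to 5. All 3mlpa libraries lay above all 3MWT libraries at stages 4 and 5, and the lines overlapped at stages 1, 2 and 3. The ratio is free of the library scaling but not of gene length, so a value of 1 does not mark equal transcript numbers. GalS1 counts per RS2 count were 1.71 ± 1.40 in 3mlpa and 0.75 ± 0.13 in 3MWT at stage 5, with overlap.

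**Figure D4:**
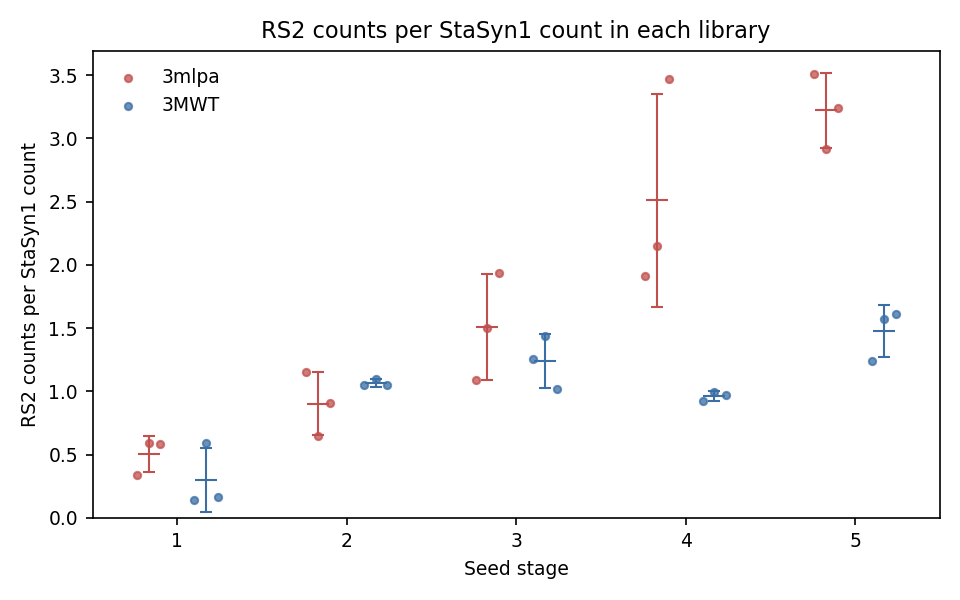
RS2 counts per StaSyn1 count (y axis) by seed stage (x axis), with 3mlpa left of 3MWT; points are libraries, and bars are the mean and SD of 3 libraries. At stage 5 the 3mlpa libraries stood at 2.92 to 3.51 and the 3MWT libraries at 1.24 to 1.61.

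Between the lines, RS2 was the single member called at any stage, and only at stage 5. There it had 32.8, 31.4 and 32.5 CPM in 3mlpa, against 12.3, 13.6 and 15.1 CPM in 3MWT. The groups were well apart, and RS2 was 2.31-fold higher in 3mlpa (log2 fold change 1.21 ± 0.11, edgeR adjusted p = 0.00137). Without replicate 1 of 3mlpa or replicate 2 of 3MWT the adjusted p was 0.0106 and 0.0208, and in a fit over all 30 libraries it was 0.0105, with a log2 fold change between 1.15 and 1.29 over the fits with a library left out. At stage 4 all 3mlpa libraries were also above all 3MWT libraries (1.14 ± 0.19, edgeR adjusted p = 0.0173), a difference that DESeq2 called (adjusted p = 1.36e-05) and that edgeR called without replicate 3 of 3mlpa (adjusted p = 0.000246). The log2 fold changes of RS2 at stages 1 to 3 were 0.99 ± 0.49, 0.38 ± 0.16 and 0.98 ± 0.33, with edgeR adjusted p of 0.221, 0.112 and 0.0903 and overlapping libraries; it was called at stage 1 without replicate 2 of 3MWT (1.83, adjusted p = 0.00403) and at stage 3 without replicate 1 of 3mlpa (1.30, adjusted p = 0.000556).

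GalS1 had log2 fold changes of 0.08 ± 0.35, 0.96 ± 0.45, 1.95 ± 0.83, 0.62 ± 0.18 and 2.41 ± 0.89 for 3mlpa over 3MWT at stages 1 to 5, with edgeR adjusted p of 0.901, 0.147, 0.157, 0.0879 and 0.112. The lines overlapped at every stage but stage 4. Leaving out replicate 3 of 3mlpa stage 5 gave 2.98 with an adjusted p of 4.68e-07, and leaving out replicate 1 of 3MWT stage 2 gave 1.87 with an adjusted p of 0.000315. StaSyn1 was nearest to the threshold at stage 2, where it had 11.01, 14.2 and 14.5 CPM in 3mlpa, against 10.1, 7.01 and 8.75 CPM in 3MWT. The groups did not overlap there (0.65 ± 0.15, edgeR adjusted p = 0.0148), and DESeq2 called the difference (adjusted p = 0.00141); at stages 1, 3, 4 and 5 the log2 fold changes of StaSyn1 were 0.21, 0.66, -0.21 and 0.08.

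Of the low GS genes, Glyma19g40680 had 29, 17, 17, 2 and 12 counts summed over the 3mlpa libraries of stages 1 to 5, against 1, 2, 1, 3 and 1 counts over the 3MWT libraries. Over all stages this was 77 counts in 3mlpa and 8 in 3MWT, a ratio of 7.98 after scaling, with a 95 % exact interval of 3.86 to 19.2 that covers counting error only. The gene was higher in all 3mlpa libraries than in all 3MWT libraries at stages 1, 2 and 5, while stage 4, at 2 and 3 counts, gave a ratio of 0.532 (0.0444 to 4.65). How many of all genes separated the lines in this way was not computed. Glyma03g38910 ran the other way early. Its stage 1 libraries held 3 counts in 3mlpa and 20 counts in 3MWT, which is a ratio of 0.122 (0.0232 to 0.410), and it had 0.21, 0.16 and 0.20 CPM in 3mlpa against 0.38, 0.40 and 0.57 CPM in 3MWT at stage 2, without overlap. Neither gene passed the edgeR test on the 6 libraries of a stage at any stage, with adjusted p of 0.0520 for Glyma19g40680 and 0.0861 for Glyma03g38910 at stage 1. At that stage edgeR's exact test called both (adjusted p = 0.00372 and 0.00549), and the fit over all 30 libraries called Glyma19g40680 (4.11 ± 1.00, edgeR adjusted p = 0.00556). In the test on 6 libraries, Glyma03g38080, Glyma10g28610 and Glyma20g22700 had adjusted p of at least 0.113 at every stage.

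Set against all genes, no member of the 8 tested (7 at stage 4) was called for 3mlpa over 3MWT at stage 1 (0.897 % of all genes tested were called), stage 2 (14.2 %), stage 3 (1.23 %) or stage 4 (0.996 %), and 1 of 8 at stage 5 (1.91 %). At an unadjusted p under 0.05, 3, 4, 4 and 2 members passed edgeR at stages 1 to 4. Of all genes tested, 12702 of 42457, 17561 of 42269, 12226 of 40971 and 9578 of 39956 passed in the same way. DESeq2 called 1 member, StaSyn1, at stage 2, 1, RS2, at stage 4 and 0 at stages 1 and 3, while edgeR's exact test called 2 and the fit over all 30 libraries 1 at stage 1. The share of all genes that these alternatives called at a stage was not recorded, so their counts cannot be set against it. The mean of the 5 line differences in a fit over all 30 libraries, added after seeing the data, called 3 of 8 members, all higher in 3mlpa, where 33.3 % of all genes were called. These were RS2 (0.94 ± 0.15, edgeR adjusted p = 1.31e-05), Glyma19g40680 (2.51 ± 0.56, edgeR adjusted p = 0.000767) and GalS1 (1.20 ± 0.35, edgeR adjusted p = 0.00650). The first and second of these were called in each of 12 fits without 1 library of stages 1 or 5, and GalS1 in 3 of the 12, with adjusted p up to 0.0135 without replicate 1 of 3mlpa stage 5. These fits called 2 to 4 members. Glyma03g38910, lower in 3mlpa, was called without replicate 1 of 3mlpa stage 1 (-1.50, adjusted p = 0.00234) and without replicate 3 of 3MWT stage 5 (-1.05, adjusted p = 0.00659). In the first of these fits, the libraries left in 3mlpa stage 1 held 0 counts of it. StaSyn1 was called without replicate 2 of 3mlpa stage 1 (0.33, adjusted p = 0.00263) and with library totals (0.37, adjusted p = 0.00412).

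**Figure D5:**
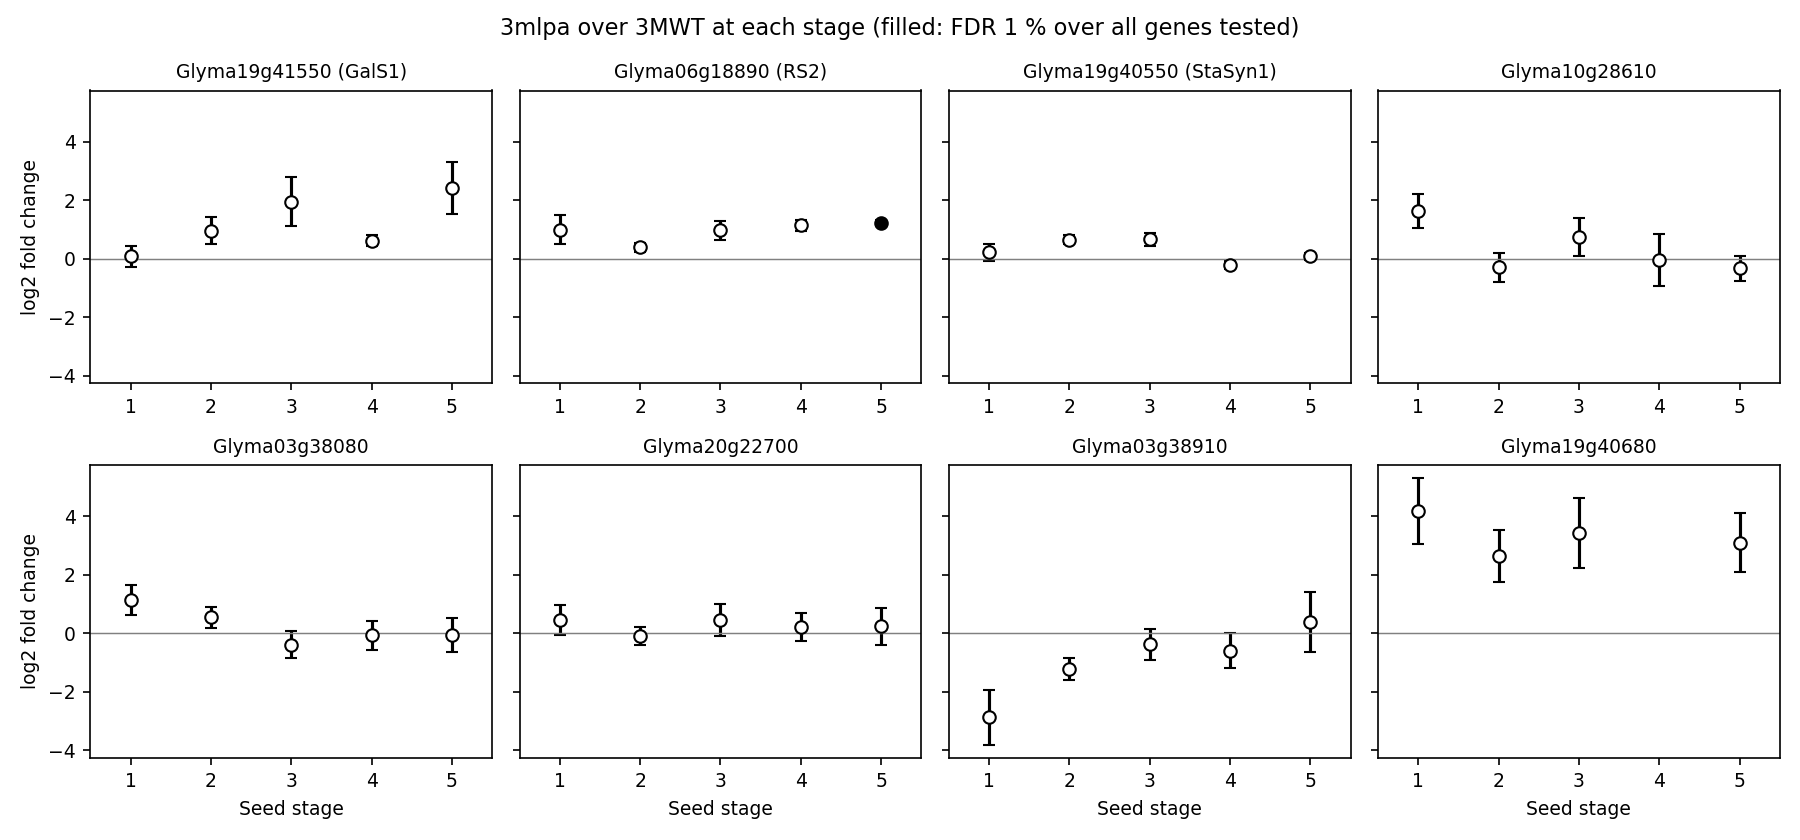
The log2 fold change of 3mlpa over 3MWT (y axis) at each seed stage (x axis), 1 panel per RFO gene; bars are the SE and the filled point, RS2 at stage 5, passed 1 % FDR. Glyma19g40680 was not tested at stage 4, and its fitted folds rest on 1 or 2 counts in 3MWT and depend on the prior count.

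Whether the stage change itself differed between the lines was tested for all members together with all genes. No member passed, either for stage 5 over stage 1 (1.18 % of all genes were called) or for all stages together (1.32 %). For RS2 the difference of the stage changes was 0.24 ± 0.49 on the log2 scale (edgeR adjusted p = 0.853), and for StaSyn1 it was -0.09 ± 0.32 (edgeR adjusted p = 0.942). Glyma03g38910 had 3.28 ± 1.16 (edgeR adjusted p = 0.101), again on 3 counts in 3mlpa at stage 1. At an unadjusted p under 0.05, GalS1 and Glyma03g38910 passed edgeR for stage 5 over stage 1, at 0.0435 and 0.00888, and 0 members for all stages together. Of all 45815 genes tested, 9054 passed in the same way for stage 5 over stage 1 and 9732 for all stages together. DESeq2 called 0 members for stage 5 over stage 1.

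The genes whose group means followed a member most closely were sought among the 32401 genes with a mean of at least 1 CPM, by Pearson's r of mean log2(CPM + 1) over the 10 groups. For RS2 they were Glyma14g04170 (r = 0.979), Glyma17g08986 (0.979) and Glyma09g38570 (0.977), of which Glyma09g38570 had 622, 574 and 608 CPM at stage 5 of 3mlpa. For GalS1 they were Glyma07g15180 (0.981), Glyma17g02280 (0.969) and Glyma20g38650 (0.956). The pool with low GalS1, replicate 3 of 3mlpa stage 5, was also the lowest of its group for each of these, at 3.77 CPM against 6.33 and 7.50 CPM for Glyma07g15180 and 80.5 CPM against 137 and 150 CPM for Glyma20g38650. For StaSyn1 they were Glyma11g05670 (0.921), Glyma13g25840 (0.885) and Glyma20g27850 (0.872). The same pool was the lowest of its group for these as well, at 35.8 CPM against 43.9 and 42.1 CPM for Glyma11g05670, although its StaSyn1 was not. Among the members, GalS1 and RS2 had r = 0.885, RS2 and StaSyn1 0.362, and GalS1 and StaSyn1 0.590; the points share lines, stages and lanes, and the named genes are the highest r of many.

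Of the other genes on the study's primer list, MRP-L (Glyma19g35230) and MRP-N (Glyma03g32500) rose in both lines, stage 5 over stage 1, as RS2 did, by 1.35 and 1.72 on the log2 scale in 3mlpa and by 1.43 and 1.92 in 3MWT (edgeR adjusted p of 0.000298 or less). Neither was called between the lines at any stage. SugT1 (Glyma08g06420), a sugar transporter, fell by 2.11 in 3mlpa and by 2.42 in 3MWT (edgeR adjusted p = 0.00275 and 4.22e-06), the opposite direction to RS2. CESA (Glyma12g36570), a cellulose synthase, and UBQ10 (Glyma07g32020), the housekeeping gene of the quantitative PCR, rose in 3MWT by 0.82 and 0.69 (edgeR adjusted p = 3.31e-05 and 0.000330) and had 0.58 and 0.52 in 3mlpa (edgeR adjusted p = 0.0161 and 0.0421). At stage 2, SugT1, CESA and UBQ10 were higher in 3mlpa by 2.03, 0.57 and 0.58 on the log2 scale (edgeR adjusted p = 0.000767, 0.00198 and 0.00152). None of these 5 genes was called between the lines at stages 1, 3, 4 and 5. Of all genes tested, 14.2 % were called at stage 2, against 0.897, 1.23, 0.996 and 1.91 % at those stages. All 3mlpa libraries lay above all 3MWT libraries for CESA at stages 1 and 5 (1.63-fold and 1.41-fold by means). The same held for SugT1 at stages 1 and 4 (2.14-fold and 1.67-fold) and for MRP-L at stage 1 (1.21-fold). Elsewhere at those stages the lines overlapped. The share of all genes whose libraries lay apart in this way was not computed.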

How the data were processed

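Only the deposited counts were used. Per the study's methods and the submitters' processing notes, the authors aligned their single-end reads with TopHat2 2.0.8 against the genome of Williams 82 (Glyma.Wm82.a1.0) and made the raw counts per gene with HTSeq in Union mode, with no normalization; a strand setting is not given in the sources used here, so a gene and an overlapping antisense gene cannot be told apart. The authors' deposited normalized values, comparison columns (fold changes and adjusted p-values of DESeq 1.12.1) and GO output were not used here. The summary lines of HTSeq stayed out of library sizes; reads in no gene were 13.1 to 29.7 % and ambiguous reads 0.0459 to 0.0721 % of counted reads.

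Counts were tested with the quasi-likelihood test of edgeR 4.0.16 in R 4.3.3, with TMM and Benjamini-Hochberg adjustment over all genes whose counts summed to 10 or more in the libraries fitted, and called at an adjusted p of at most 0.01. Stage changes were fitted on the 15 libraries of a line, line differences on the 6 of a stage and the difference of stage changes on all 30. The SE is the size of the log2 fold change divided by the square root of F. CPM is counts per 1000000 reads of TMM effective library size. Where all libraries of a group lay above or below those of another, the share of all genes that did so was not computed. DESeq2 1.42.0, edgeR's exact test, other filters and scalings, a replicate block and leaving out libraries were alternatives. The fits were tested on simulated data. All 8 members were named in every comparison, 3 genes most like each of GalS1, RS2 and StaSyn1 were named by r, and the primer list gave the other genes; the members and lists were chosen with earlier results of these data known. Replicates were pools of seeds from 1 line, so p-values weigh a difference against the spread between such pools and not between lines of a genotype. Gene identifiers matched none in the reference table used here (a later assembly), so no coordinates or lengths are given.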

Additional observations from a re-analysis of the deposited data

How the results depend on the processing

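Counts limit the low members: GS genes other than GalS1 had medians of 0 to 12 counts per library. Over all 78 single-gene log2 fold changes, 943 alternative values kept direction and side of the threshold, 20 lost a call, 24 gained 1 and 39 changed sign. With a library left out, the mean share of the GS counts in 3mlpa stage 5 ran from 0.547 to 7.45 % for Glyma10g28610 and from 0.162 to 3.69 % for Glyma03g38910. The RS2 changes of stage 5 over stage 1 were called under every alternative in both lines. The causes of the changes below were not tested.

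The number of members called, 2 for stage 5 over stage 1 in 3mlpa, was 1 with only stages 1 and 5 in the fit, 1 with the replicate block and 1 to 2 with a library left out. With DESeq2 it was 1 rather than 0 for stage 2 over 1 and for stage 3 over 2 in 3mlpa, and 2 rather than 1, with Glyma10g28610, for stage 2 over 1 in 3MWT. For any change over the stages, 1 in each line, it was 2 in 3mlpa in the fit over all 30 libraries, and 3 in each line with library totals, which also gave 3 rather than 1 for stage 5 over stage 1 in 3MWT. In that last comparison, library totals called 28168 of all 43381 genes tested, against 18153 with TMM. For the alternatives other than library totals, the share of all genes called was not recorded. Between the lines it was 2 with edgeR's exact test and 1, Glyma19g40680, in the fit over all 30 libraries at stage 1; 1 with DESeq2 and 1 with the exact test at stage 2; 1 with DESeq2, 1 with the exact test and 1 with no filter at stage 4; and 0 in the fit over all 30 libraries at stage 5. With libraries left out it ran from 0 to 1 at stages 1, 2 and 4 and from 0 to 2 at stages 3 and 5; at stage 3 the 2 members, RS2 (1.30) and StaSyn1 (0.86), were called without replicate 1 of 3mlpa.

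Signs changed where the log2 fold change was near 0 or rested on few counts. With library totals StaSyn1 in 3MWT was -0.88 for stage 5 over stage 1. Glyma10g28610 at stage 4 was 0.0537 with DESeq2 and 0.0538 with the exact test, against -0.04 with the main test. With a library left out, stage 5 over stage 1 ran from -0.91 to 0.0240 for Glyma19g40680, from -0.27 to 0.27 for Glyma03g38080, from -0.65 to 0.14 for Glyma10g28610 and from -0.37 to 0.14 for StaSyn1 in 3mlpa, and from -0.0833 to 0.18 for StaSyn1 in 3MWT. For 3mlpa over 3MWT it ran from -0.19 to 0.56 for GalS1, from -0.0722 to 0.82 for Glyma20g22700 and from -0.0321 to 0.47 for StaSyn1 at stage 1. At stage 2 it ran from -0.87 to 0.0316 for Glyma10g28610 and from -0.21 to 0.0722 for Glyma20g22700; at stage 3 from -0.63 to 0.0011 for Glyma03g38080; at stage 4 from -0.32 to 0.0921 for Glyma03g38080 and from -2.08 to 0.48 for Glyma10g28610. At stage 5 it ran from -0.41 to 0.63 for Glyma03g38080, from -0.20 to 2.39 for Glyma03g38910 and from -0.13 to 0.65 for Glyma20g22700. The difference of the stage changes ran from -2.75 to 1.42 for Glyma19g40680, from -0.55 to 0.34 for Glyma20g22700, from -0.58 to 0.54 for RS2 and from -0.35 to 0.15 for StaSyn1.

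Lines and stages share replicate numbers, but the numbers did not pair the samples: of 15 same-numbered pairs, 2 had deviations correlated above 0.1 (-0.307 to 0.402), and 4 of 15 3mlpa libraries correlated best with their own number. With the replicate block, GalS1 in 3mlpa was 2.96 for stage 5 over stage 1 (adjusted p = 0.0151), Glyma03g38080 at stage 5 between the lines was 0.0092 against -0.06, and no other call changed.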

Other observations

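By the chromosome number in their identifiers, GalS1, Glyma19g40680 and StaSyn1 lie on chromosome 19 with MRP-L, and Glyma03g38910 and Glyma03g38080 on chromosome 3 with MRP-N. Between MRP-L and GalS1 in identifier order, 15.8 % of 493 genes tested were called between the lines at stage 2, and between MRP-N and Glyma03g38910 16.7 % of 526, against 14.2 % of all genes. At stage 5 the shares were 1.52 % of 462 genes and 2.46 % of 487, against 1.91 % of all genes. The 3 identifiers on either side of Glyma19g40680 had mean line differences between -0.80 and 0.27 on the log2 scale, against 2.51 for Glyma19g40680 itself. Of these neighbours, Glyma19g40661 (-0.73, edgeR adjusted p = 0.00375) and Glyma19g40700 (-0.33, edgeR adjusted p = 2.12e-06) were called, both lower in 3mlpa. The -0.80 belongs to Glyma19g40670, with 4 counts in 3mlpa and 9 counts in 3MWT.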
